A study of Mus musculus with 11 samples.

Results

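Solute carriers are membrane proteins that move small molecules across the plasma membrane and the membranes of organelles, and their genes carry symbols that begin with Slc. The genes described here were every transcript cluster of the array whose symbol starts with Slc, a number and a letter and whose level exceeded the 40th percentile of its array on at least 3 of 11 arrays. Slc7a11, Slc40a1, Slc11a1 and Slc11a2 were left out by name. Of 361 such symbols on the array, 4 were left out, 143 did not pass the filter and 214 formed the set, among 12144 genes tested in all. Symbols just inside the filter were Slc30a8 and Slc8a3, above the percentile on 3 arrays with mean levels of 5.00 and 5.10, and 7 symbols just outside it reached 2 arrays with mean levels of 4.68 to 5.01. The symbol is a name and not a function: at least 4 of the 214 are not transporters. These are the scaffold proteins Slc9a3r1 and Slc9a3r2 and the genes Slc4a1ap and Slc7a6os, which are named after a partner or a neighbour. The heavy chain Slc3a2 and the lipocalin receptor Slc22a17, both in the set, are not counted among these 4.

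Solute carriers use the gradient of their own substrate, an exchanged substrate, or the gradients of sodium ions, protons or chloride, and need no ATP of their own. In macrophages they supply glucose, amino acids, copper and zinc, release the products of digested cells from lysosomes, and load the Golgi apparatus with nucleotide sugars for glycan synthesis. Alveolar macrophages, the resident phagocytes of the airspaces, take up surfactant, dead cells and inhaled particles, and export from the lysosome belongs to that work.

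RNA was measured in alveolar macrophages of female C57BL/6J mice obtained at 6 weeks of age, in a model of macrophage activation syndrome (MAS), a hyperinflammatory state. Mice received 5 injections over 10 days of either PBS or CpG 1826, an oligonucleotide ligand of Toll-like receptor 9. The groups were control (PBS, lavage on day 10, n = 4), acute MAS (CpG 1826, day 10, n = 3) and MAS resolution (CpG 1826, day 30, n = 4), with cells purified by adherence after bronchoalveolar lavage and 1 Affymetrix array per sample. No PBS group was lavaged on day 30, so treatment, recovery, day and age cannot be told apart in comparisons with resolution. Adherence can leave other cells in the preparation, and in such bulk RNA fewer cells of a type and less RNA per cell cannot be told apart.

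All levels are log2(deposited intensity + 1), so a difference of 1 is a doubling, and levels of different probe sets are not compared with each other. The 18 alveolar macrophage markers tested averaged 14.6 to 14.7 on every array, and none was below background in any group. Single markers moved within that mean: 3 were called higher and 5 lower at resolution than in control, and 2 higher and 4 lower than in acute MAS, among them Pparg (0.75 against control, adjusted p = 0.000809) and the fatty acid binding proteins Fabp4 (-1.20, adjusted p = 7.79e-05) and Fabp5 (-0.80, adjusted p = 0.00138). Background was the 90th percentile of the array's 23 antigenomic probe sets, at 6.12 to 6.24. Of the 214 solute carrier genes, 142 were above background on every array and 36 on none, so the levels of those 36 carry little information. On the first principal component of the 214 genes, which held 42.0% of their variance, the resolution arrays lay at 3.91 to 5.16 and the other 7 at -4.29 to -1.42. On the second, control replicate 4 lay at -5.52, apart from the rest.

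Markers of other cell types moved with the groups. Of 15 lung epithelium markers tested, 4 were called higher in acute MAS than in control, 9 lower and 1 higher at resolution than in acute MAS, and 4 lower and 1 higher at resolution than in control. The mean level of the 15 was 8.23 to 8.58 in control, 9.31 to 9.72 in acute MAS and 7.84 to 8.17 at resolution, with Sftpd and Krt8 below background in control and at resolution. The 7 neutrophil markers averaged 7.97 to 9.0, 8.26 to 8.44 and 7.72 to 8.08 in the same order, with 2 called lower and 1 higher at resolution than in each other group and Ltf below background at resolution. Of 9 interstitial macrophage markers, at 6.98 to 7.26, 7.46 to 7.86 and 7.26 to 7.61, 2 were called higher and 1 lower at resolution than in control, 1 was called lower than in acute MAS and 1 was higher in acute MAS than in control, with Cx3cr1 and Cd163 below background in every group. Of 3 NK and cytotoxic cell markers, which averaged 5.04 to 5.88 in control, 6.15 to 6.80 in acute MAS and 5.21 to 5.35 at resolution, 1 was called higher in acute MAS than in control (Il2rb, adjusted p = 0.0196) and 2 lower at resolution than in acute MAS (Il2rb and Klrd1). Klrb1c was below background in every group, and Il2rb in control and at resolution. Of 5 T cell markers, at 7.34 to 7.55, 7.44 to 7.91 and 7.11 to 7.20, Cd3d was called lower at resolution than in acute MAS and than in control, with Cd3e and Thy1 below background in every group and Cd3d in control and at resolution. Of 4 dendritic cell markers, at 6.79 to 7.41, 7.37 to 7.59 and 7.0 to 7.30, 2 were lower at resolution than in acute MAS, with Xcr1 below background in every group and Siglech at resolution. Of 4 monocyte markers, at 10.9 to 11.1, 10.9 to 11.0 and 11.0 to 11.3, 1 was called higher at resolution than in control (Ccr2, below background in control and acute MAS) and 1 higher than in acute MAS (Fn1). Chil3 is in this list and in that of alveolar macrophages, so the mean of the 4 includes it. The part of these cell types in the differences below was not tested.

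At resolution 48 of the 214 genes (22.4%) differed from control, against 18.6% of all genes tested. The falls included the glucose transporter Slc2a1, the copper importer Slc31a1, the heme transporter Slc48a1 and the neutral amino acid exchanger Slc7a8, each more than 2-fold. Among the rises were the zinc importer Slc39a10, the magnesium transporter Slc41a1 and the monocarboxylate carrier Slc16a6. In acute MAS no solute carrier gene passed the threshold against control.

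In the comparison with control 26 genes were higher at resolution (12.1%, against 9.60% of all genes) and 22 lower (10.3%, against 9.0%), with a median difference over the 214 of -0.003 against 0.003 over all genes. The arrays of the groups did not overlap for 56 genes (26.2%, against 22.7%). Against acute MAS, 41 genes differed at resolution (19.2%, against 14.5%), 28 higher (13.1%, against 7.77%) and 13 lower (6.07%, against 6.69%), and 73 did not overlap (34.1%, against 26.3%). Quantile normalization gave 20 higher (9.35%, against 5.64% of all genes) and 18 lower (8.41%, against 9.48%) in place of that 28 and 13. Against control the shares lay near those of all genes, and against acute MAS the share called higher lay above its background and the share called lower near it. Without acute replicate 1 the calls against acute MAS were 22 higher (10.3%, against 4.53% of all genes) and 7 lower (3.27%, against 4.27%). The comparisons share the resolution arrays, and 31 genes were called in both, 17 only against control and 10 only against acute MAS, which made 58 in all. The counts by class of substrate below are to be read beside these shares of all genes, for the same comparison and direction. Whether a class differed from them was not tested. Each difference below is from the limma fit, and its adjusted p is Benjamini-Hochberg's over the 12144 genes, called at 0.05.

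**Figure D1:**
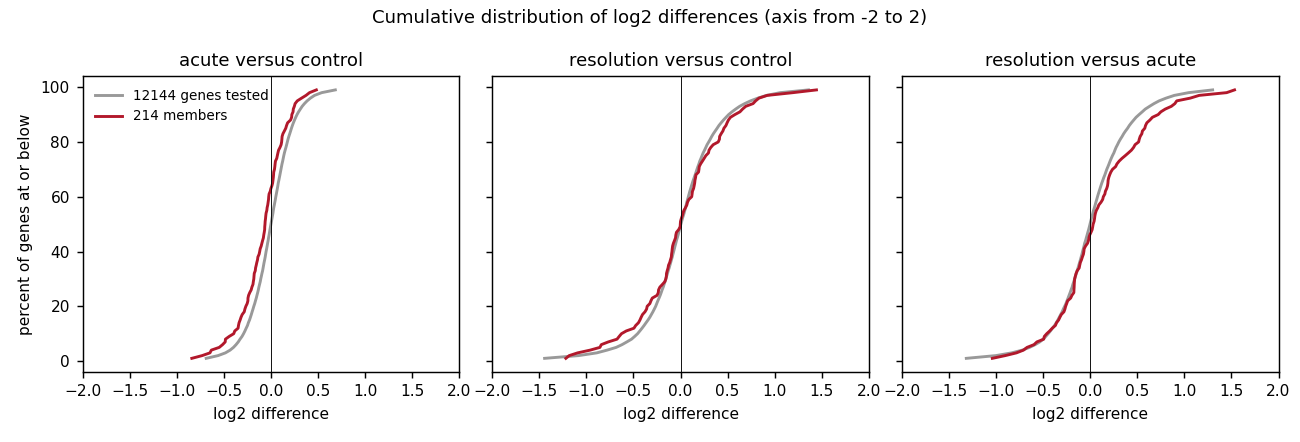
Cumulative distribution of log2 differences, from the 1st to the 99th percentile, for the 214 solute carrier genes (red) and all 12144 genes tested (grey) in each comparison. The curves lie close together against control at resolution, and the red curve lies left of the grey in acute MAS, where the medians were -0.06 and -0.0005.

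Acute MAS gave no call among the 214 in limma (0.00%), beside 0.239% of all genes either way, 0.189% higher and 0.0494% lower. At an unadjusted p under 0.05 there were 22 of 214 genes, beside 1099 of 12144, and the smallest adjusted p was 0.153. The arrays of the groups did not overlap for 17 genes (7.94%), beside 10.1% of all genes. Differences were negative for 135 genes and positive for 79. Among genes above background on every control array, the largest negative difference was that of Slc43a3 (-1.30), and the largest positive one was that of Slc25a37 (0.99), the iron importer of mitochondria.

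Slc25a37 read 7.92, 8.07, 8.19 and 8.45 in control and 11.16, 7.87 and 8.41 in acute MAS. Slc4a1, the anion exchanger of red cells, read 7.36, 7.14, 7.15 and 7.62 in control and 9.55, 7.02 and 6.96 in acute MAS. Acute replicate 1 was therefore the high array for both, and without it the differences were -0.02 and -0.33. Of the red cell list only Alas2, the heme synthesis enzyme of red cell precursors, was tested. Alas2 read 5.72 to 6.70 in control, 15.15, 6.99 and 9.26 in the acute arrays and 5.54 to 7.25 at resolution, and its part in these 2 differences was not tested. Control replicate 4 was likewise alone in Slc1a2, a glutamate transporter, at 9.57 against 5.18 to 6.06, and in the creatine transporter Slc6a8, at 9.67 against 7.38 to 7.75. Without control replicate 4, Slc6a8 was called lower at resolution than in control (-0.57, adjusted p = 0.0204). With it the difference was -1.10 and the adjusted p 0.0677.

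Promoters of 4 genes called at resolution against control are printed, picked because each holds a motif of a nutrient or stress response. The windows of Slc31a1 and Slc39a10, which changed more than Slc39a13 and Slc7a7, held none of the motifs searched. The sequences are RefSeq's, from assembly GRCm38.p6, on the strand of the gene, and end at the base before the start of transcription. Capitals mark the motif, read on the opposite strand in Slc2a1. The windows lie at chr4:119108495-119108744 on the plus strand for Slc2a1, where capitals mark the A form of the metal response element core, and at chr2:91070316-91070565 on the minus strand for Slc39a13, where they mark the antioxidant response element core. Those of Slc37a2 (chr9:37255739-37255988, minus strand) and Slc7a7 (chr14:54417945-54418194, minus strand) hold an AP-1 site and an amino acid response element core.
Slc2a1: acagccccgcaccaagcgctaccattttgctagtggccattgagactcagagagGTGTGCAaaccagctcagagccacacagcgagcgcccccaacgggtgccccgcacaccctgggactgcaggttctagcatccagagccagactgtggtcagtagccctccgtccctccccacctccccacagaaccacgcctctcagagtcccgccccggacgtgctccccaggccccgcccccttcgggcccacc
Slc39a13: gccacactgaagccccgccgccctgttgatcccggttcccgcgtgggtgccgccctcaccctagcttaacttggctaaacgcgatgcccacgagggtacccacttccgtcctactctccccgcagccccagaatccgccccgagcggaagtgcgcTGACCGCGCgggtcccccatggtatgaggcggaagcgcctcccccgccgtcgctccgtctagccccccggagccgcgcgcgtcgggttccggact
Slc37a2: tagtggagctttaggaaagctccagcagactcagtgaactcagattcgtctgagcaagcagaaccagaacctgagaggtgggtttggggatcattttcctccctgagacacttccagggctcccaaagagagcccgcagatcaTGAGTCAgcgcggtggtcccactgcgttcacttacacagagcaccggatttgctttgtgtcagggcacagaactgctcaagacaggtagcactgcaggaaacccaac
Slc7a7: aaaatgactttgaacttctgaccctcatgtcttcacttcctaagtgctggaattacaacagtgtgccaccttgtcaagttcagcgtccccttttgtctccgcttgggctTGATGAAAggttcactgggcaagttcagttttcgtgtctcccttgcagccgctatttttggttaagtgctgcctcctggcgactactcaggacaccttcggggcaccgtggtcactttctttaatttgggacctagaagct

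Of the 214 genes, 169 matched the promoter table by Entrez gene ID, with 219 windows of 300 bases (250 before the start and 50 from it on). Motifs were searched on both strands. The antioxidant response element core (TGACNNNGC) lay in 18.3% of the windows of these genes and in 12.4% of all 32851 windows, and the A form of the metal response element core (TGCACNC) in 15.5% and 12.6%. The G form (TGCGCNC) lay in 23.3% and 15.4%, the AP-1 site (TGANTCA), which can overlap the antioxidant core, in 5.94% and 7.81%, and the amino acid response element core (TGATGNAA) in 2.74% and 3.97%. CACGTG, the E-box read by the lysosomal regulators Mitf, Tfe3 and Tfeb, lay in 14.2% and 7.15%. The 32851 windows covered 27025 genes with no filter on level, while the solute carrier genes had passed one. The part of that filter in these shares was not tested. Among genes lower at resolution than in control, 16 had 19 windows, and the A form of the metal core lay in 26.3% of these (Slc22a4, Slc23a2, Slc2a1, Slc39a13 and Slc66a1) and the E-box in 15.8%. Among higher genes, 21 had 38 windows, with 10.5% for each of these motifs. The G form of the metal core lay in 3 of the 19 windows of lower genes (15.8%) and 10 of the 38 of higher genes (26.3%), beside 23.3% over the solute carrier genes. Those 10 windows came from 7 genes, since a gene can have several windows that overlap. The A form lay in 5 windows of lower genes and 4 of higher genes. No difference between these shares was tested. The amino acid response element core lay in 0 and 7.89%, the antioxidant core in 15.8% and 13.2%, and the AP-1 site in 5.26% of each. A match is a run of letters and was not tested as a binding site.

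Hexose carriers were the first class. Slc2a1 (GLUT1), which takes up glucose, read 16.34, 16.47, 16.25 and 16.31 in control, 16.27, 15.88 and 15.83 in acute MAS and 15.24, 15.35, 15.11 and 14.56 at resolution. Every resolution array lay below every other array, and the acute arrays overlapped control. The fall at resolution was 1.28 ± 0.17 (SE, n = 4 and 4) on the log2 scale against control, 2.43-fold, with an adjusted p of 0.000212, and 0.93 ± 0.18 against acute MAS (adjusted p = 0.00459). Slc37a2, a sugar phosphate transporter of the endoplasmic reticulum abundant in macrophages, read 11.67, 11.80, 12.08 and 11.79 in control, 11.77, 11.75 and 11.53 in acute MAS and 10.95, 9.99, 10.93 and 10.70 at resolution. Its resolution arrays were again below all others, with a fall of 1.19 ± 0.19 against control (2.29-fold, adjusted p = 0.00099). Opposite in direction was Slc37a4, the glucose-6-phosphate translocase, higher at resolution by 0.76 ± 0.17 (adjusted p = 0.00794), with 1 of 4 control arrays and all 4 resolution arrays above background. Slc50a1, a sugar efflux carrier, was higher by 0.66 (adjusted p = 0.021), a call that ended without control replicate 4 or resolution replicate 1, 2 or 3 (adjusted p 0.0502 to 0.0586). The 11 other hexose carriers of 15 passed no threshold against control, among them Slc2a6, at 6.61 ± 0.17 (SD, n = 4) in control and 6.45 ± 0.11 (n = 4) at resolution.

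Among 11 carriers of monocarboxylates, dicarboxylates and citrate, 3 rose and 2 fell at resolution against control. Slc16a6 (MCT7), linked to ketone body export, read 10.70, 10.67, 9.87 and 10.86 in control, 9.65, 10.02 and 10.66 in acute MAS and 11.86, 11.79, 11.79 and 12.55 at resolution. The resolution arrays were above all others, by 1.47 ± 0.26 over control (2.77-fold, adjusted p = 0.00188) and by 1.89 ± 0.28 over acute MAS (adjusted p = 0.000834). Slc16a7 (MCT2), a high-affinity pyruvate and lactate carrier, read 9.0, 9.52, 9.08 and 8.59 in control, 8.71, 8.55 and 8.34 in acute MAS and 9.74, 10.13, 9.61 and 9.97 at resolution. It too was highest on the 4 resolution arrays, 0.82 ± 0.19 above control (adjusted p = 0.00878) and 1.33 ± 0.20 above acute MAS (adjusted p = 0.000874). Slc16a1 (MCT1), the widely expressed lactate carrier, moved the other way: 8.25, 8.30, 7.81 and 8.36 in control against 7.53, 7.59, 7.58 and 7.49 at resolution, a fall of 0.63 ± 0.14 (adjusted p = 0.0068). Slc16a3 (MCT4), the lactate exporter of glycolytic cells, stood at 9.67 ± 0.16 (SD, n = 4) in control and 9.51 ± 0.25 (n = 4) at resolution (adjusted p = 0.518). The aromatic amino acid carrier Slc16a10 fell by 0.85 (adjusted p = 0.0394), and the call ended without any 1 of 7 arrays (control 1, 2 or 3, acute 3, resolution 2, 3 or 4, adjusted p 0.0528 to 0.107). Slc16a14 was called higher at 5.96 against 5.18, with 1 of the 8 arrays above background, so no fold is given.

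Amino acid and amine carriers numbered 39, of which 2 rose and 4 fell at resolution against control, beside 18.6% of all genes either way. Slc7a8 (LAT2), which pairs with the heavy chain Slc3a2 to exchange neutral amino acids, read 13.61, 13.65, 13.76 and 13.62 in control, 13.59, 12.51 and 13.20 in acute MAS and 12.42, 12.19, 12.61 and 11.91 at resolution. Resolution lay below control without overlap, by 1.38 ± 0.21 (2.60-fold, adjusted p = 0.00059), while acute replicate 2 lay within the resolution range. Slc7a7, which pairs with the same chain and exports cationic amino acids, read 11.24, 11.35, 10.92 and 10.81 in control, 11.28, 10.98 and 11.09 in acute MAS and 11.82, 11.90, 12.00 and 11.91 at resolution. All 4 resolution arrays were above the other 7, with rises of 0.83 ± 0.14 over control (adjusted p = 0.00103) and 0.79 ± 0.15 over acute MAS (adjusted p = 0.00319). The heavy chain Slc3a2 itself stood at 16.35 ± 0.14 (SD, n = 4) in control and 16.04 ± 0.18 (n = 4) at resolution and was not called (adjusted p = 0.128). Slc6a4, the serotonin transporter, read 9.37, 9.45, 9.03 and 8.66 in control, 8.54, 8.43 and 8.78 in acute MAS and 10.11, 10.14, 9.77 and 10.28 at resolution. It was highest at resolution, 0.95 ± 0.18 above control (adjusted p = 0.00264) and 1.49 ± 0.19 above acute MAS (2.81-fold, adjusted p = 0.000281).

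Smaller falls concerned Slc7a2 (-0.65), which takes up arginine, Slc38a9 (-0.47), the arginine sensor of the lysosome, and the taurine transporter Slc6a6 (-0.43). These 3 calls each ended without any 1 of 5 arrays. The arrays were control 1, 2 or 4 and resolution 3 or 4 for Slc7a2 (adjusted p 0.0505 to 0.0682), control 1 or 2 and resolution 1, 3 or 4 for Slc38a9 (0.0554 to 0.0702), and control 1, 2 or 3 and resolution 2 or 3 for Slc6a6 (0.0534 to 0.0804). Slc36a1, the proton-coupled exporter of small amino acids from lysosomes, was called against acute MAS alone. It read 9.45, 9.31 and 8.85 in acute MAS and 10.08, 9.84, 10.07 and 10.44 at resolution, without overlap, a rise of 0.90 ± 0.18 (adjusted p = 0.00507). Several carriers often measured in activated cells gave no call at resolution against control: the large neutral carrier Slc7a5 (0.14, adjusted p = 0.737), the arginine carrier Slc7a1 (-0.13, adjusted p = 0.779) and the glutamine carriers Slc1a5 (-0.08, adjusted p = 0.74) and Slc38a2 (0.04, adjusted p = 0.941).

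**Figure D2:**
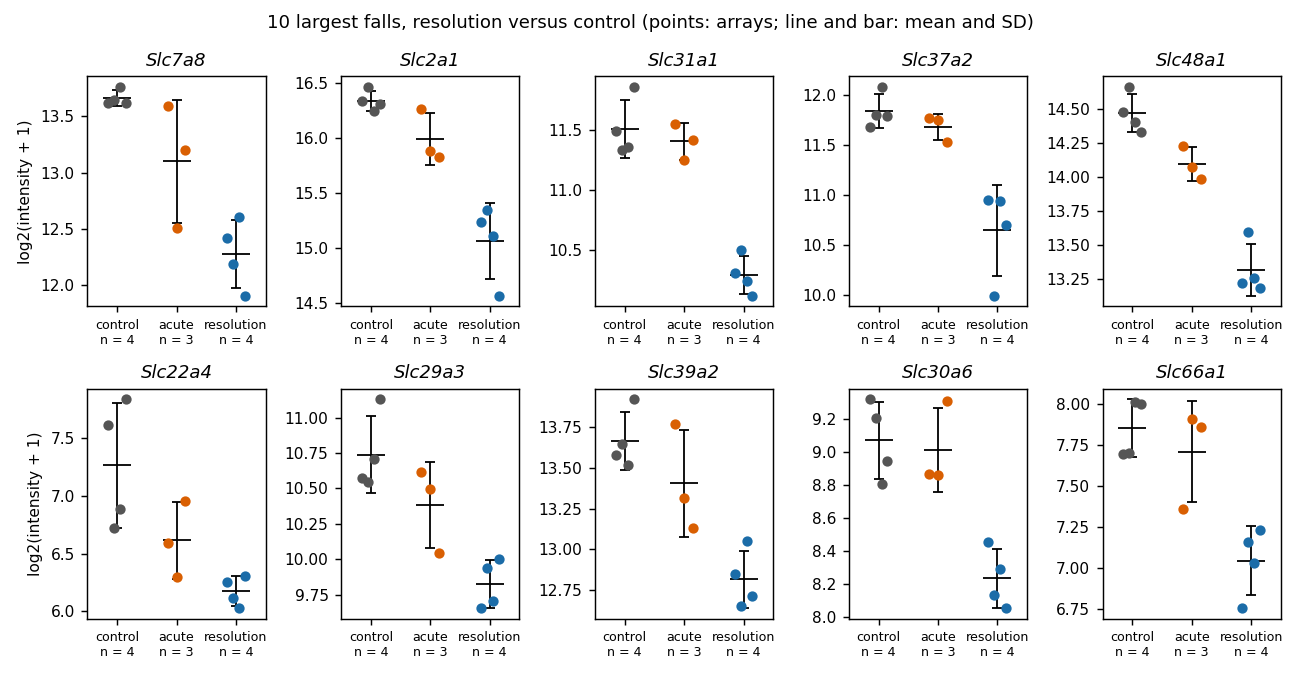
Levels, log2(intensity + 1), of the 10 genes that fell most at resolution against control with no overlap between the groups (points: arrays; lines and bars: mean and SD; n = 4, 3 and 4). The scales differ between panels, and in each panel all resolution points lie below all control points, such as 14.56 to 15.35 against 16.25 to 16.47 for Slc2a1.

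Copper, magnesium and heme carriers made a small class: of 7 genes, 2 rose and 2 fell at resolution against control. Slc31a1 (CTR1), the copper importer, read 11.49, 11.33, 11.36 and 11.86 in control, 11.56, 11.25 and 11.42 in acute MAS and 10.31, 10.50, 10.24 and 10.12 at resolution. Slc48a1 (HRG1), which moves heme out of lysosomes after red cells are digested, read 14.48, 14.67, 14.41 and 14.34 in control, 14.23, 14.07 and 13.99 in acute MAS and 13.22, 13.60, 13.26 and 13.19 at resolution. In both genes the 4 resolution arrays were the lowest, by 1.22 ± 0.14 against control for Slc31a1 (2.33-fold, adjusted p = 7.87e-05) and by 1.16 ± 0.13 for Slc48a1 (2.23-fold, adjusted p = 5.59e-05). Against acute MAS they were lower by 1.12 ± 0.15 (adjusted p = 0.000435) and 0.78 ± 0.14 (adjusted p = 0.00226). The acute arrays of Slc48a1 were also all below control, by 0.37, with an adjusted p of 0.429. The magnesium transporter Slc41a1 read 12.20, 12.22, 12.18 and 11.88 in control, 12.26, 12.50 and 12.33 in acute MAS and 13.66, 13.14, 12.99 and 13.81 at resolution. Its order was control, acute, resolution without overlap, with a rise of 1.28 ± 0.18 at resolution over control (2.43-fold, adjusted p = 0.0003). Slc41a3 was higher by 0.64, a call that ended without control replicate 2 or 4 or resolution replicate 2 (adjusted p 0.0545 to 0.0689).

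Zinc carriers comprise importers of the Slc39 family, which raise zinc in the cytosol, and exporters of the Slc30 family, which lower it. Of 22, 1 rose and 5 fell at resolution against control, beside 18.6% of all genes either way. The riser, Slc39a10, read 9.53, 10.19, 9.82 and 9.48 in control, 9.05, 9.83 and 10.19 in acute MAS and 11.25, 11.32, 11.20 and 11.11 at resolution. The 4 resolution arrays stood together above the rest, by 1.47 ± 0.22 over control (2.76-fold, adjusted p = 0.000607) and by 1.53 ± 0.24 over acute MAS (adjusted p = 0.0011). Slc39a13, a zinc transporter of the Golgi apparatus, read 10.15, 10.40, 10.23 and 10.31 in control, 10.25, 10.22 and 10.21 in acute MAS and 9.44, 9.44, 9.35 and 9.82 at resolution. It was lowest at resolution, with a fall of 0.76 ± 0.12 against control (adjusted p = 0.00088). Slc39a2 (-0.85, adjusted p = 0.00219), Slc39a6 (-0.76, adjusted p = 0.00188) and Slc39a14 (-0.64, adjusted p = 0.0152), which also carries iron and manganese, fell against control. So did Slc30a6, which loads zinc into the Golgi apparatus (-0.84, adjusted p = 0.00231). Slc30a1, the zinc exporter of the plasma membrane, was called against acute MAS alone (0.60, adjusted p = 0.0338), and that call ended without acute 2 or 3 or resolution 1, 2 or 3 (adjusted p 0.0596 to 0.127). In that comparison the calls of Slc39a2 (-0.59) and Slc39a6 (-0.49) ended without any 1 of 5 arrays (acute 1 or 2, resolution 1, 2 or 4, adjusted p 0.0597 to 0.155) and any 1 of 8 (control 1, 2 or 3, acute 1 or 3, resolution 1, 2 or 4, adjusted p 0.0562 to 0.187). The importer Slc39a8 was not called (-0.49, adjusted p = 0.195).

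Carriers of inorganic ions and regulators of pH, 27 genes, had 3 rises and no call downwards in limma at resolution against control, where 3 genes were lower at an unadjusted p under 0.05. One of the 27 was called lower with quantile normalization, and 1 without acute replicate 1. Slc9a3r2 (NHERF2), the scaffold that tethers sodium-proton exchangers, read 6.41, 6.72, 6.66 and 6.04 in control, 6.67, 7.11 and 6.56 in acute MAS and 7.89, 8.94, 7.72 and 8.69 at resolution. Resolution exceeded every other array, by 1.85 ± 0.26 over control, the largest rise of the 214 (3.61-fold, adjusted p = 0.00037). Its control levels were near the background of those arrays, 6.12 to 6.22, and control replicate 4 lay below its own. The fold therefore rests on control levels near the floor. Slc12a7, a potassium-chloride cotransporter, read 10.76, 10.98, 10.81 and 10.25 in control and 11.52, 11.42, 11.63 and 11.56 at resolution. Slc9a2, a sodium-proton exchanger, read 10.66, 10.35, 10.17 and 9.90 in control and 11.37, 11.33, 11.14 and 10.86 at resolution. Neither overlapped, with rises of 0.83 ± 0.16 (adjusted p = 0.00255) and 0.91 ± 0.18 (adjusted p = 0.00351). The anion exchanger Slc4a2 was higher than in acute MAS (0.83, adjusted p = 0.011) and not called against control (0.48, adjusted p = 0.0712). The phosphate carrier Slc20a1 was low on the acute arrays, at 7.74, 7.34 and 7.35 against 8.17, 7.92, 8.17 and 8.23 in control and 7.84, 7.64, 8.34 and 8.30 at resolution. Acute and control did not overlap, and the difference of -0.65 had an adjusted p of 0.271.

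**Figure D3:**
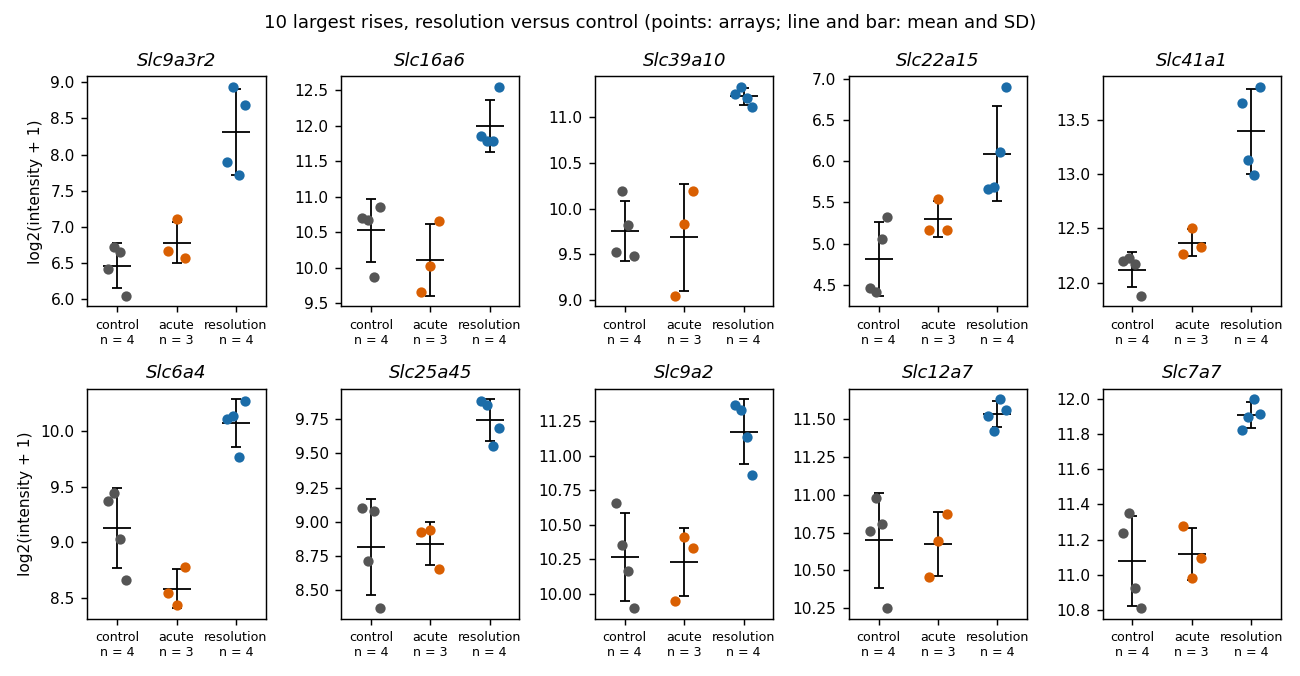
Levels, log2(intensity + 1), of the 10 genes that rose most at resolution against control with no overlap between the groups (points: arrays; lines and bars: mean and SD; n = 4, 3 and 4). Resolution points lie above all control points in every panel, such as 11.11 to 11.32 against 9.48 to 10.19 for Slc39a10, and Slc22a15 has 1 array above background.

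Carriers of nucleosides and nucleotide sugars, 24 genes, had 5 rises and 1 fall at resolution against control, and 8 rises and no fall called in limma against acute MAS, where 1 gene was lower at an unadjusted p under 0.05. Of all genes, 7.77% were called higher and 6.69% lower against acute MAS. Median scaling and quantile normalization each left 2 rises and 1 fall in the class against control, and 4 rises and 1 fall against acute MAS. The differences from control were positive for 17 of the 24, with a median of 0.27. Slc35c2, which acts with the GDP-fucose supply of the Golgi apparatus, read 6.75, 7.06, 7.17 and 7.03 in control, 6.34, 6.63 and 6.70 in acute MAS and 7.58, 8.0, 7.82 and 7.38 at resolution. The 3 groups did not overlap, with acute lowest and resolution highest, 0.69 ± 0.15 above control (adjusted p = 0.00771) and 1.14 ± 0.17 above acute MAS (adjusted p = 0.000683). Slc35e4 was higher by 0.65 ± 0.15 than in control (adjusted p = 0.00865) and by 0.90 ± 0.16 than in acute MAS (adjusted p = 0.00262). The faller Slc29a3 (ENT3), which releases nucleosides from lysosomes, read 10.57, 10.54, 10.71 and 11.13 in control, 10.62, 10.50 and 10.04 in acute MAS and 9.66, 9.94, 9.70 and 10.00 at resolution. Its resolution arrays were the lowest, by 0.91 ± 0.17 against control (adjusted p = 0.0022). The plasma membrane carrier Slc29a1 (ENT1) rose by 0.41 against control, but the call ended without any 1 of 7 arrays (control 3 or 4, acute 2 or any resolution array, adjusted p 0.0548 to 0.11). Slc35e1 (0.40) and Slc35g1 (0.46) were higher than in control, and each call ended without any 1 of 5 arrays: control 2 or 3 for both, with resolution 1, 3 or 4 for Slc35e1 (adjusted p 0.0566 to 0.0709) and resolution 2, 3 or 4 for Slc35g1 (adjusted p 0.0596 to 0.0874). The calls of Slc29a1, Slc35e1 and Slc35g1 against control, and of Slc35b4, Slc35d2, Slc35e3 and Slc35g1 against acute MAS, ended under both scalings. Slc35d2, Slc35b4, Slc35c1 and Slc35e3 were called against acute MAS alone, at 1.17, 0.76, 0.72 and 0.60. Without acute replicate 1 none of these 4 calls remained, at adjusted p of 0.151, 0.139, 0.134 and 0.0631. They also ended without resolution replicate 1, 2 or 3 for Slc35d2, 2 or 4 for Slc35b4, 1 or 2 for Slc35c1, and 2, 3 or 4 or acute replicate 2 or 3 for Slc35e3, with adjusted p from 0.0528 to 0.13.

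Vitamin carriers, 6 genes, had 2 rises and 1 fall at resolution against control. The riboflavin carrier Slc52a3 was higher by 0.79 ± 0.16 (adjusted p = 0.00496) and the lysosomal carrier Slc46a3 by 0.69 ± 0.14 (adjusted p = 0.00475). Slc23a2, which takes up ascorbate, read 15.52, 15.62, 15.41 and 15.44 in control, 15.19, 14.91 and 15.22 in acute MAS and 15.09, 14.65, 14.92 and 14.96 at resolution. Both CpG-treated groups lay below control without overlap, and the fall of 0.59 ± 0.12 at resolution passed the threshold (adjusted p = 0.00564) while the difference of -0.39 in acute MAS did not (adjusted p = 0.381).

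Carriers of peptides and organic anions of vesicles and lysosomes, 12 genes, had 1 rise and 1 fall at resolution against control. Slc66a1 (PQLC2), which exports cationic amino acids from lysosomes, fell by 0.81 ± 0.16 (adjusted p = 0.00335), from 7.85 ± 0.18 (SD, n = 4) to 7.04 ± 0.21 (n = 4). Slc66a2 rose by 0.71 (adjusted p = 0.038), a call that ended without any 1 of 6 arrays (control 3 or 4, acute 3, resolution 1, 2 or 4, adjusted p 0.0501 to 0.102). Slc18b1 read 6.02, 6.79, 5.38 and 6.33 in control, 4.09, 5.48 and 4.39 in acute MAS and 6.28, 6.71, 6.19 and 5.95 at resolution. No acute array was above background, and resolution was at least 1.07-fold higher (difference 1.63 ± 0.35, adjusted p = 0.00818). That bound is the resolution mean over each acute array's background. Slc15a3 and Slc15a4, lysosomal histidine and peptide carriers tied to signalling by the receptor for CpG, were not called at resolution against control (-0.24, adjusted p = 0.094, and 0.49, adjusted p = 0.298).

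Fatty acid, choline and organic ion carriers, 17 genes, had 2 rises and 1 fall at resolution against control. The larger rise, that of Slc22a15 by 1.28, had 1 array above background, so no fold is given. Slc22a4 (OCTN1), which takes up ergothioneine, read 7.61, 6.72, 6.89 and 7.84 in control, 6.59, 6.30 and 6.96 in acute MAS and 6.26, 6.12, 6.03 and 6.30 at resolution. The resolution arrays lay below control and overlapped acute MAS, with 2 of 4 above background, and the fall against control was 1.09 ± 0.23 (2.13-fold, adjusted p = 0.00609). Slc22a17, a receptor for lipocalin, rose by 0.58 (adjusted p = 0.017), which ended without control replicate 2 (adjusted p = 0.0512). The fatty acid transport proteins Slc27a1 (0.34, adjusted p = 0.221) and Slc27a4 (0.56, adjusted p = 0.0636) were not called.

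Mitochondrial carriers of the Slc25 family, 34 genes, had 3 rises and 3 falls at resolution against control (1 and 4 with median scaling), and the median difference was 0.07. Slc25a45 read 9.10, 8.71, 9.08 and 8.37 in control, 8.93, 8.94 and 8.66 in acute MAS and 9.88, 9.85, 9.56 and 9.69 at resolution. It stood above all other arrays at resolution, by 0.93 ± 0.17 over control (adjusted p = 0.00186). Slc25a44, which carries branched-chain amino acids, fell by 0.56 (adjusted p = 0.00579). Slc25a16, linked to coenzyme A, rose by 0.58 (adjusted p = 0.0262), which ended without control replicate 4 or resolution replicate 2 (adjusted p = 0.0592 and 0.0702). The aspartate-glutamate carrier Slc25a12 was not called (-0.35, adjusted p = 0.124).

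**Figure D4:**
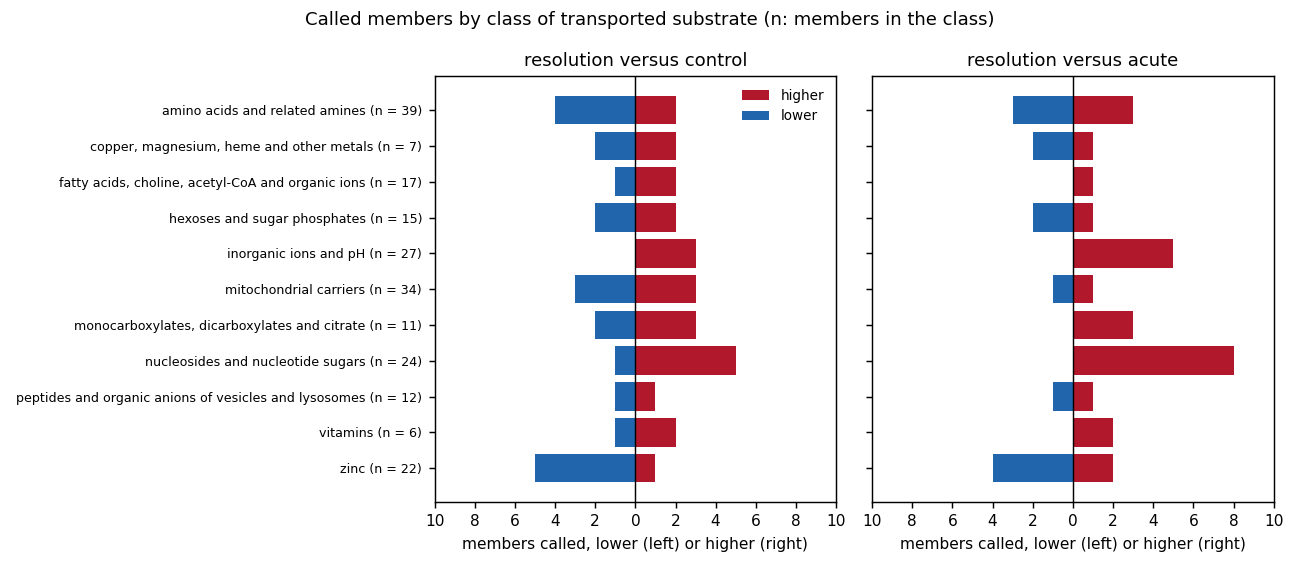
Genes called higher (red, to the right) and lower (blue, to the left) by class of substrate, at resolution against control and against acute MAS, with the number of genes in each class in brackets. Of all genes tested, 18.6% were called either way against control and 14.5% against acute MAS. Nucleosides and nucleotide sugars have 8 higher and none lower against acute MAS (4 and 1 under either scaling, 4 and 0 without acute replicate 1), and zinc carriers have 5 lower and 1 higher against control.

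**Figure D5:**
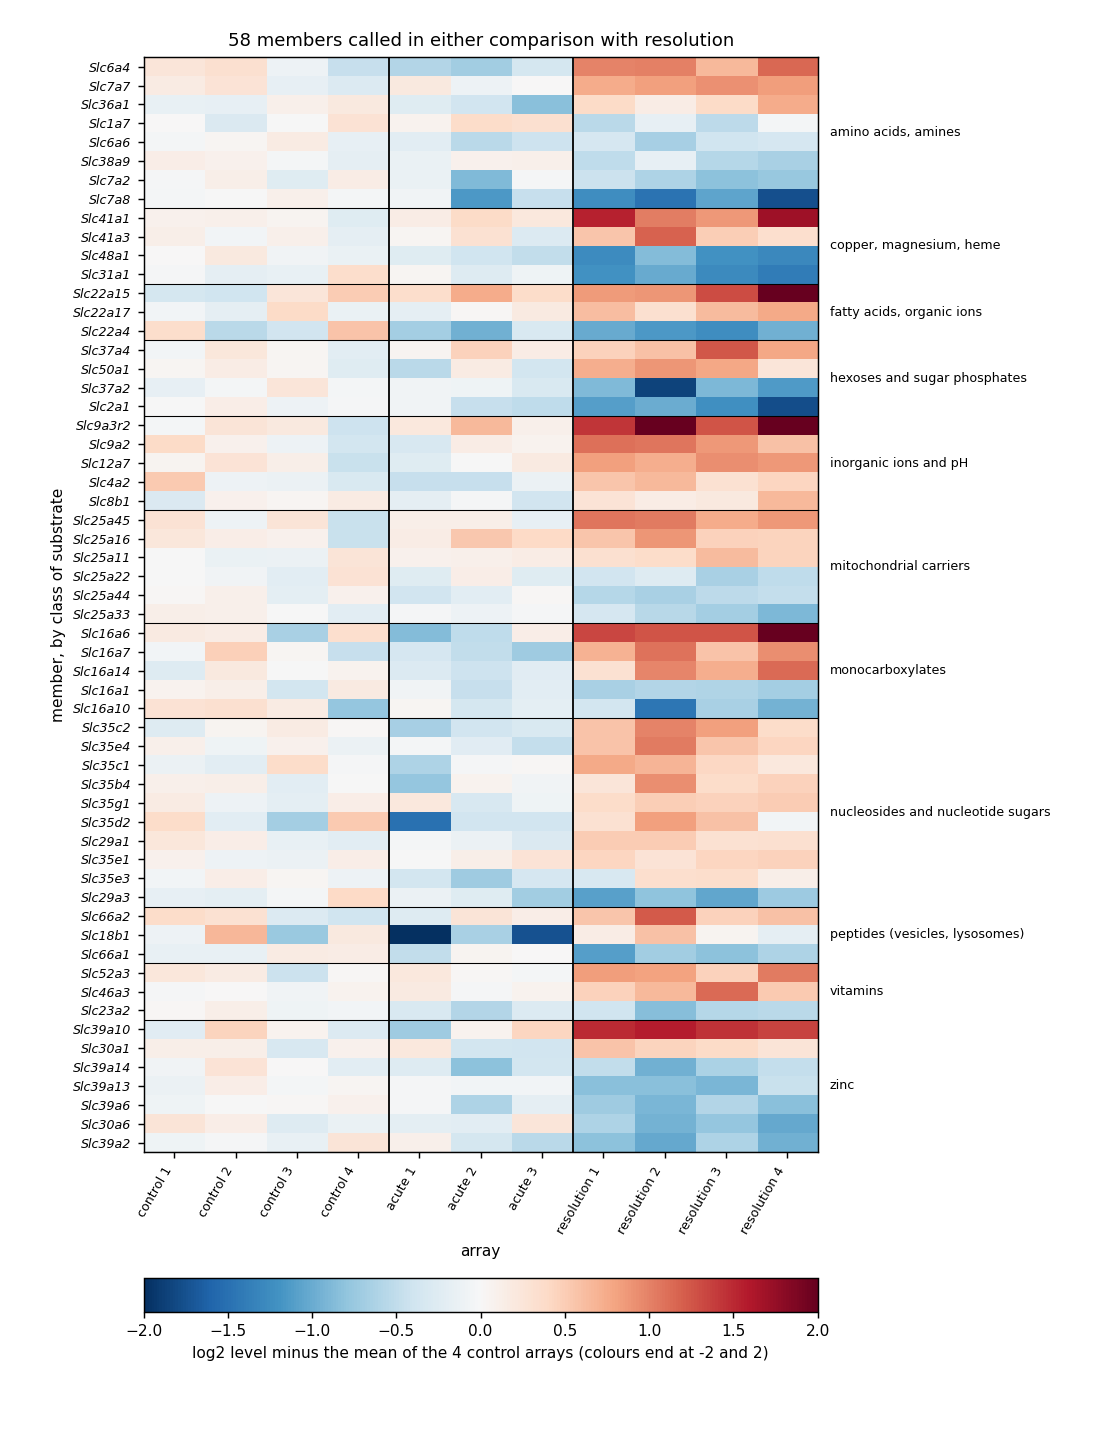
Level of each of the 58 genes called in a comparison with resolution on each of the 11 arrays, as the log2 difference from the mean of the 4 control arrays, with genes grouped by substrate. The 4 resolution columns are the coloured ones in most rows, and Slc18b1 and Slc35d2 have their darkest blue on acute arrays.

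Genes that share the work of these carriers were followed in 8 lists of 84 genes tested. The lists were chosen with earlier results of these data known, and the part of that choice in the counts was not tested. In acute MAS limma called none of the 84 against control, beside 0.239% of all genes, with 12 at an unadjusted p under 0.05. Of 17 genes of lysosomal nutrient sensing, the machinery that reports lysosomal amino acids to mTORC1, 6 were called lower at resolution than in control and none higher, with a median difference of -0.41. Fnip2, partner of folliculin, fell by 2.47 ± 0.29 (adjusted p = 9.7e-05), Mitf, a regulator of lysosomal genes, by 1.38 ± 0.17 (adjusted p = 0.000128), and Lamtor3, a subunit of the lysosomal Ragulator complex, by 1.09 ± 0.11 (adjusted p = 3.64e-05). Of 14 ABC transporters, pumps that do use ATP, 3 rose and 4 fell at resolution against control: Abcc1 fell by 2.41 ± 0.23 (adjusted p = 1.93e-05), and the cholesterol exporter Abcg1 rose by 1.42 ± 0.16 (adjusted p = 6.91e-05). Slco2b1, an organic anion carrier outside the Slc symbols, was the only call among 7 of its family at resolution against control and rose by 1.92 ± 0.14 (adjusted p = 3.52e-06). Of the 7, 5 were below background in control and 4 at resolution, so the lack of other calls says little about them.

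The other lists are also given at resolution against control, so the same shares of all genes stand beside them. Of 6 genes of arginine use, 1 fell at resolution, Arg2, by 1.45 (at least 2.12-fold, adjusted p = 4.4e-05). Of 10 genes of hexose trapping and lactate handling 1 fell, Ldha, by 0.61 (adjusted p = 0.000965). The amino acid response list of 12 had 1 fall, of the transcription factor Atf4 (-0.52, adjusted p = 0.00884), and 1 rise, of Sesn2, the leucine sensor (1.08, at least 1.14-fold, adjusted p = 0.00345). Of 8 sodium pump and chloride channel genes 3 fell, among them Clcn7, the chloride-proton exchanger of lysosomes (-1.30, adjusted p = 0.00496). Limma called none of 10 genes of zinc and copper handling at resolution, with 1 at an unadjusted p under 0.05 against control and 1 against acute MAS.

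The genes with the largest range of group means were set beside the other members over the 11 arrays, as a description, since the points share the 3 groups. Slc39a10 followed Slc12a7 (Pearson r = 0.95), Slc9a2 (0.90) and Slc35c2 (0.88) most closely. For Slc16a6 the nearest were Slc6a4 (0.88), Slc16a14 (0.87) and Slc39a10 (0.87). Slc9a3r2 lay nearest to Slc41a1 (0.90), Slc25a45 (0.89) and Slc39a10 (0.86), and Slc18b1 nearest to Slc35d2 (0.81), Slc35b4 (0.75) and Slc38a10 (0.74).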

How the data were processed

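Per the labels, total RNA from 11 samples was labelled with the GeneChip 3' IVT Pico kit and hybridised to Affymetrix arrays. The authors deposited linear intensity values for 28846 transcript clusters, made with Affymetrix Expression Console per the submitters' processing notes. The sources used here do not give the algorithm. Each symbol was represented by its highest-mean cluster, transformed as log2(intensity + 1), and kept if at least 3 arrays exceeded their 40th percentile. One limma fit (limma 3.58.1, R 4.3.3) over all 11 arrays gave 3 contrasts, with Benjamini-Hochberg adjustment over 12144 genes at 0.05. The fit was run on simulated data with independent normal noise of equal spread in each group. Arrays that stand apart, such as control replicate 4, were not simulated, so that run does not cover them. The number of arrays limits the precision.

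Genes were named by rule: largest called changes without overlap, up to 3 per substrate class and list, and a fixed list of names. The members and lists were chosen with earlier results of these data known. Substrate classes were assigned by family, so a class name need not be the substrate of each gene in it. Where no array of a group was above background, folds are bounds, computed against background. Replicate numbers are not stated to mark a shared litter, batch or day, so the reported fit has no block. Deviations of arrays with the same number correlated at -0.12 to 0.09 over 10 pairs, which cannot exclude a shared litter or day. Alternatives were median scaling, quantile normalization, a pseudocount of 16, no filter, and a filter at the 60th percentile on 4 arrays. Others were a replicate block, the compared groups only, an intensity trend, the lowest-mean cluster, and leaving out each array. No solute carrier gene of the set had several clusters on the array, so the lowest-mean cluster left their values unchanged.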

Additional observations from a re-analysis of the deposited data

Results flagged for a closer look

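In groups of 4 arrays, a gap test at the 95% level picked out 9 of 160 groups over the 80 named solute carrier genes, and chance alone picks about 1 in 20. Control replicate 4 was the array set apart in 6 of the 9. It was low for Slc16a10 (10.57, nearest other control array 11.50), Slc38a1 (12.21, nearest 12.76), Slc41a1 (11.88, nearest 12.18) and Slc9a9 (8.32, nearest 9.17). It was high for Slc27a1 (10.59, nearest 9.77) and Slc6a8 (9.67, nearest 7.75). Control replicate 3 was low for Slc30a1 (8.93, nearest 9.33). Resolution replicate 4 was high for Slc16a6 (12.55, nearest 11.86), and resolution replicate 2 for Slc66a2 (12.04, nearest 11.41).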

How the results depend on the processing

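No alternative reversed the direction of a called gene. Of 48 calls at resolution against control, 34 held under every alternative that tested them, 14 ended without some array, and 9 of these also under another setting (Slc16a10, Slc25a11, Slc25a16, Slc25a22, Slc29a1, Slc35e1, Slc35g1, Slc41a3 and Slc66a2). Of 41 calls against acute MAS 23 held, and 18 ended without some array, 13 of them also under another setting. Leaving out each array gave 21 to 30 genes higher and 17 to 23 lower against control, 22 to 30 higher and 7 (without acute replicate 1) to 14 lower against acute MAS, and 0 for acute MAS against control. With the replicate block, 27 rose and 23 fell against control, and 28 rose and 11 fell against acute MAS. Slc18b1 alone was lower in acute MAS than in control (adjusted p = 0.0455), in place of 0 genes, and was below background on every acute array. Over all genes the block called 2120, 1455 and 25 either way, in the same order, beside 2259, 1755 and 29 without it. Quantile normalization gave 22 higher (10.3%, beside 8.24% of all genes) and 24 lower (11.2%, beside 10.4%) against control. Median scaling gave 19 (8.88%, beside 7.33%) and 23 (10.7%, beside 9.86%). Scaling moved the median of all genes by under 0.1. Genes below background have no reliable fold, and 3 acute arrays limit what comparisons with acute MAS can show.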
